A study of Mus musculus with 54 samples.

Results

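The 9 genes described here are genes known from the germline or grouped with such genes: Tdrd9, M1ap, Gm773, Xlr, 3830403N18Rik, Tdrd1, Tdrd7, Mov10l1 and Piwil2. They were taken by symbol, out of 19920 genes with a gene-level probe set assigned to exactly 1 symbol, and each gene was read on its brightest such probe set by the mean over 27 arrays. At exon level they had 160 of the 212097 probe sets with 1 symbol. They were chosen by their gene-level signal differences between the CIR lines and parental cells, and by their piRNA partners, with those values in view. Levels and line differences of these 9 genes are therefore a description without a test, while their responses to stimulation, on which the choice did not rest, were tested.

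The cells were Ba/F3-gp130, a mouse pro-B cell line grown on Hyper-IL-6, in which the cytokine and its soluble receptor are joined in a single protein that signals through gp130. The study examined how receptor constructs of a cargo internalization receptor (CIR) system affect expression in general, so untransfected Ba/F3-gp130 cells (parental) were set beside Ba/F3-gp130 lines transfected with CIR-1, CIR-2 or CIR-3. All lines were kept with 10 ng/ml Hyper-IL-6, washed, and held without serum for 3 h. Each of the 4 lines was then either unstimulated or exposed for 1 h to 50 µl/ml of GFP-PFC, an emulsion named for GFP and perfluorocarbon, and parental cells alone were also exposed for 1 h to 100 ng/ml Hyper-IL-6, giving 9 groups of 3 arrays. The labels do not state whether replicates were separate cultures, so p-values may measure technical spread only, and they do not state whether a CIR line was 1 clone, so construct and clone cannot be told apart. No transfected line with an empty vector is among the groups.

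In male germ cells, piRNAs (small RNAs bound by PIWI proteins) guide the silencing of transposons. Piwil2 is such a PIWI protein, Mov10l1 is an RNA helicase that feeds piRNA precursors to PIWI proteins, Tdrd1 and Tdrd7 are tudor-domain scaffolds of germ granules, and Tdrd9 is a tudor-domain helicase needed to silence retrotransposons. M1ap is required for meiosis in spermatocytes. Xlr is an X-linked gene first found in lymphocytes, and its family shares a domain with the synaptonemal complex protein Sycp3. Many germline genes are kept silent in somatic cells by DNA methylation and repressive chromatin.

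The 250 bases upstream of the start site are shown for the 5 genes whose level differed by 1 or more on the log2 scale between a CIR line and parental cells, because these genes did not share 1 pattern over the lines. The sequences and positions are from RefSeq on GRCm38.p6, which may not be the build of the array design, and 8 of the 9 genes had an entry (all but Piwil2). Capitals mark both CACGTG words (the E-box hexamer) in Tdrd9, at chr12:111971309-111971558 on the plus strand, and GCGGGA, the reverse complement of the E2F-type word TCCCGC, in M1ap, at chr6:82946672-82946921 on the plus strand. In the 3 X-linked genes, capitals mark a 14-base stretch common to all 3, which contains the word CCAAT. These windows lie at chrX:53797707-53797956 on the minus strand for Xlr, chrX:56136322-56136571 on the plus strand for 3830403N18Rik, and chrX:56212882-56213131 on the minus strand for Gm773.
Tdrd9: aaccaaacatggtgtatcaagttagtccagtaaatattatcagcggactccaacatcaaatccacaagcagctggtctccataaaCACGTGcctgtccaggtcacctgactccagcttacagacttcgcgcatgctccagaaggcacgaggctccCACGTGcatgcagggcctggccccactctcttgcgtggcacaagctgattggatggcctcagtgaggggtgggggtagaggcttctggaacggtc
M1ap: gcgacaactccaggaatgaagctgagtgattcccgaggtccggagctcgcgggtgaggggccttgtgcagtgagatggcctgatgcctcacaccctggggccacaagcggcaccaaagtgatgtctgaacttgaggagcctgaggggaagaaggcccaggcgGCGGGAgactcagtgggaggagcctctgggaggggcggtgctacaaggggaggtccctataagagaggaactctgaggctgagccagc
Xlr: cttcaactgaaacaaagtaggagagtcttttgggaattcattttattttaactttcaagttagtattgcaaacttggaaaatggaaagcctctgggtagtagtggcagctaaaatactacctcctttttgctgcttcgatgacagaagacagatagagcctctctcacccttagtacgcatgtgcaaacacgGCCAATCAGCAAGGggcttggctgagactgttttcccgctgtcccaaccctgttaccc
3830403N18Rik: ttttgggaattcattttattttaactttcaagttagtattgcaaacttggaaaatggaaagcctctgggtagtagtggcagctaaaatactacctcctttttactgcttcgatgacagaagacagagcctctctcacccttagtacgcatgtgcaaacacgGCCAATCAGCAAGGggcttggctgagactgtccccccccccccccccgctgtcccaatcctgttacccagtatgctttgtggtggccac
Gm773: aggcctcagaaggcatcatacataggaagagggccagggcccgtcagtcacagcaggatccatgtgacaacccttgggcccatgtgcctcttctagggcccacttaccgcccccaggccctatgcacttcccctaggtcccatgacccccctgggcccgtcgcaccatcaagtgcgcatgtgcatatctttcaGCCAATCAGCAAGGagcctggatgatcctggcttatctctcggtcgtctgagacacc

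The stretch GCCAATCAGCAAGG was picked as the longest run of bases common to the windows of Xlr, 3830403N18Rik and Gm773. Its presence in those 3 was therefore fixed by the choice. On either strand it occurred in 3 of 32851 RefSeq upstream windows of the same length (0.009%), those of the same genes, a count that is no test. The Xlr and 3830403N18Rik windows were identical at 214 of 219 aligned bases (97.7%), with 14 gap positions inside the alignment. Gm773 was identical to Xlr at 61.9% and to 3830403N18Rik at 59.3% of aligned bases, and the pairs among Tdrd9, M1ap and Xlr reached 60.1% to 66.9%. Probe and transcript sequences were not compared, so whether the probe sets of Xlr and 3830403N18Rik share signal was not tested. CACGTG occurred in 6.0% of all windows and at least 2 times in 0.43%, CCAAT in 33.8% and TCCCGC in 16.9%, each counted on both strands. TCCCGC also occurred 1 time in the Xlr window, left in lower case there, and CACGTG 1 time each in 2 of the 3 Tdrd1 windows (1 per start site) and in the Mov10l1 window, genes that overlapped parental cells in every line. The 5 windows held 44.4% to 62.4% GC, at percentiles 22.1 to 77.5 of all windows, and their ratio of observed to expected CpG was 0.28 to 0.43, at percentiles 40.4 to 54.3. The word CCAAT was not limited to the marked stretch. It also occurred 1 time in the Tdrd9 window, in lower case, and 2 times in the Mov10l1 window, and 3830403N18Rik held 2 in all. Such word matches describe the sequence and do not show that a factor binds.

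The deposited log2 signals had array medians of 7.52 to 7.65 and lower quartiles of 6.22 to 6.31, and a gene-level signal below 6.28, the lower quartile over all arrays, is treated here as a bound near background. Against that line, parental Gm773, Xlr and 3830403N18Rik lay below it on all 9 parental arrays, so their folds over parental cells are lower bounds. For Xlr and 3830403N18Rik these are bounds for the probe set, because shared signal was not tested. Parental M1ap lay between 7.88 and 8.61, above the median of every array. The germ-cell marker Prm2 read 7.92 to 8.22 over all arrays, so such a level alone does not show whether M1ap was on or off in parental cells. Parental Tdrd9 lay between 7.00 and 7.43, below the median of every array. The marker Tnp2 read 6.98 to 7.30, so the same holds for Tdrd9. The folds of M1ap and Tdrd9 over parental cells may therefore be lower bounds too. Of the 15 germ-cell markers, 0 differed from parental cells in any CIR line at an adjusted p under 0.05. Of all genes, 1.17% to 1.73% were called in these comparisons, so a count of 0 among 15 tells little about the markers. The mean over the markers lay between 6.74 and 6.91 on every array. In each group 9 of the 15 had a mean above the lower quartile, among them Zbtb16, a transcription factor also expressed in blood cells (mean 11.79 over all arrays), and 6 did not. Among those 6, the defining genes Ddx4 (4.95 to 5.51), Dazl (5.63 to 6.07), Stra8 (5.26 to 5.77) and Sycp3 (4.15 to 4.67) lay below the lower quartile on all 27 arrays. Of the pro-B markers, the signals of the B-cell receptor components Cd79a (9.31 to 10.25) and Cd79b (9.84 to 10.28) were high, whereas Rag2 (5.08 to 5.64) and Ebf1 (5.66 to 6.09) were below the lower quartile.

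Tdrd9 was high in CIR-3 cells alone. On the unstimulated arrays numbered 1, 3 and 5 its log2 signal was 7.00, 7.20 and 7.27 in parental cells, 7.44, 7.61 and 7.55 in CIR-1, 7.50, 7.67 and 7.96 in CIR-2, and 10.81, 11.04 and 10.99 in CIR-3. The CIR-3 arrays all lay above every other array, and the CIR-1 and CIR-2 arrays overlapped each other just above the parental ones. The GFP-PFC arrays, numbered 2, 4 and 6, gave 7.31, 7.04 and 7.15 in parental cells, 7.41, 7.65 and 7.41 in CIR-1, 7.32, 7.83 and 8.01 in CIR-2 and 10.96, 10.91 and 10.98 in CIR-3, in the same order. In such bulk samples, more cells with the transcript and more transcript per cell cannot be told apart. The CIR-3 minus parental difference was 3.79 ± 0.136 (SE, n = 3 per group) in both conditions, which is 13.8-fold, and it ranged from 3.72 to 3.84 between unstimulated arrays of the same number. CIR-1 lay 0.38 ± 0.136 and CIR-2 0.55 ± 0.136 above parental cells.

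M1ap was graded over the lines, and no 2 lines overlapped. Unstimulated parental cells gave 8.07, 8.51 and 8.04, CIR-2 cells 9.07, 9.27 and 9.17, CIR-1 cells 9.55, 10.06 and 10.37, and CIR-3 cells 11.20, 11.39 and 11.86. The order CIR-3, CIR-1, CIR-2, parental was the same without overlap on the GFP-PFC arrays, where the group means were 11.56, 10.05, 9.15 and 8.26. The unstimulated differences from parental cells were 3.28 ± 0.222 in CIR-3 (9.70-fold), 1.78 ± 0.222 in CIR-1 (3.44-fold) and 0.96 ± 0.222 in CIR-2 (1.95-fold). Within a CIR group the 3 arrays spread by up to 0.99, most in CIR-1, where the SD was 0.414 unstimulated and 0.513 with GFP-PFC.

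Gm773, an X-linked gene model, was near background in parental, CIR-1 and CIR-2 cells and high in CIR-3. Its signal was 4.42, 4.75 and 4.66 in unstimulated parental cells, 4.69 to 5.04 on the 12 CIR-1 and CIR-2 arrays, and 10.42, 9.82 and 9.81 in unstimulated CIR-3 cells. The 3 CIR-3 arrays with GFP-PFC gave 9.65, 9.82 and 9.69. CIR-3 thus stood at least 42.4-fold above parental cells without stimulation (difference 5.41 ± 0.136) and at least 32.8-fold with GFP-PFC (5.04 ± 0.136).

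Xlr was highest in CIR-2 and intermediate in CIR-3. Unstimulated parental cells gave 6.03, 5.34 and 5.49 and CIR-1 cells 5.77, 5.68 and 5.93, which overlapped. CIR-2 cells gave 9.80, 10.32 and 10.16 and CIR-3 cells 7.70, 7.33 and 7.12, clear of each other and of both lower groups. The differences from parental cells were 4.48 ± 0.18 in CIR-2 (at least 22.3-fold), 1.76 ± 0.18 in CIR-3 (at least 3.39-fold) and 0.17 ± 0.18 in CIR-1. With GFP-PFC they were 4.74, 1.62 and 0.43, and the 3 CIR-1 arrays (5.85, 6.05, 6.03) then lay above the parental ones (5.72, 5.18, 5.77).

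3830403N18Rik, which RefSeq also lists as Xlrl, was highest in CIR-2 too, but its second place was held by CIR-1. Its unstimulated signal was 5.50, 5.26 and 5.63 in parental cells, 8.14, 7.27 and 7.66 in CIR-1, 10.55, 10.33 and 10.30 in CIR-2, and 6.74, 6.85 and 6.35 in CIR-3. No 2 lines overlapped. The differences from parental cells were 4.93 ± 0.188 in CIR-2 (at least 30.5-fold), 2.23 ± 0.188 in CIR-1 (at least 4.68-fold) and 1.18 ± 0.188 in CIR-3 (at least 2.27-fold), and with GFP-PFC 5.20, 2.41 and 1.26. In unstimulated CIR-1 cells the probe set of 3830403N18Rik was therefore 2.23 above parental cells while that of Xlr lay within the parental range. With GFP-PFC the CIR-1 differences were 2.41 and 0.43.

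**Figure D1:**
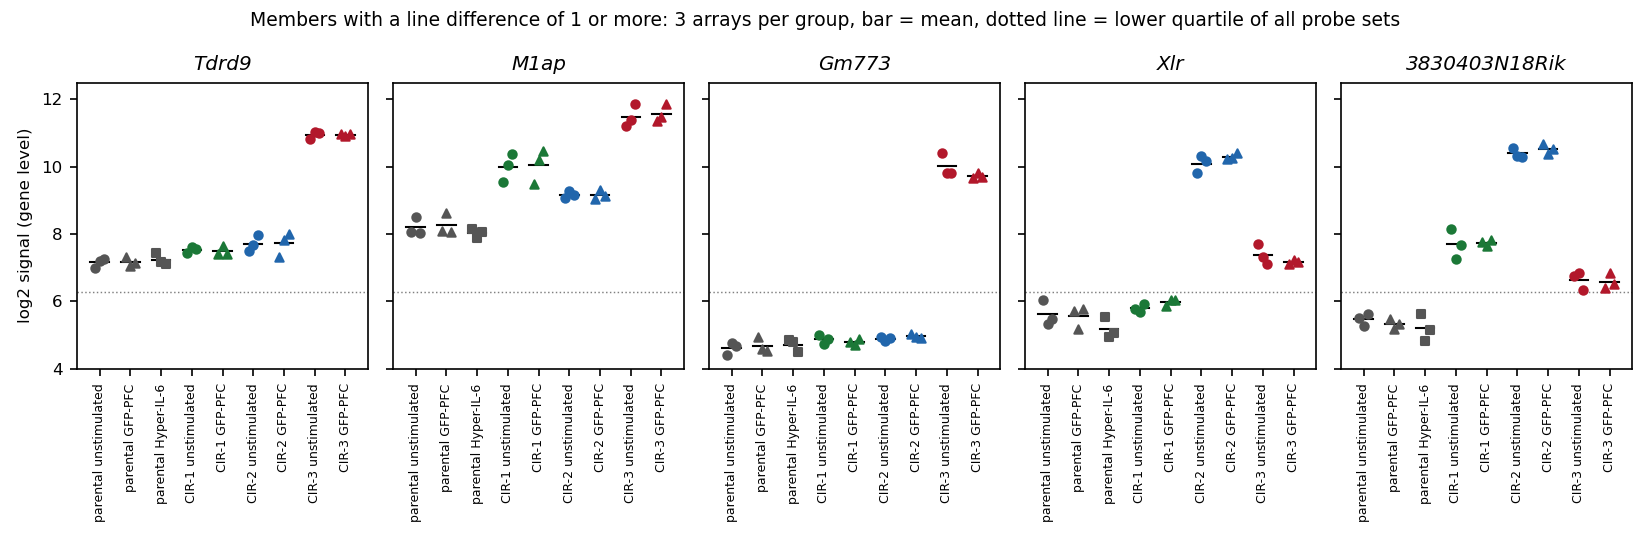
Gene-level log2 signal (y axis, same scale in each panel) of the 5 genes with a line difference of 1 or more, in 9 groups of 3 arrays (x axis). Points are arrays, circles unstimulated, triangles GFP-PFC and squares Hyper-IL-6, bars are means, and the dotted line is the lower quartile of all probe sets. Tdrd9 and Gm773 stand high in CIR-3 alone, M1ap is graded, and Xlr and 3830403N18Rik are highest in CIR-2.

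Without stimulation, CIR-1 had 2, CIR-2 had 2 and CIR-3 had 5 of the 9 genes higher than parental cells by 1 or more with no overlap of the arrays. Over all genes the share was 0.136%, 0.171% and 0.201%. On the GFP-PFC arrays the counts were again 2, 2 and 5, with shares of 0.136%, 0.191% and 0.186% over all genes. Counting any difference without overlap, 4, 5 and 5 of the 9 were higher unstimulated (4.77%, 4.74% and 4.96% of all genes) and 5, 5 and 6 with GFP-PFC (7.25%, 7.27% and 5.98%). Because these line differences led to the choice of the genes, nothing is read from the counts.

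Among the 9 genes, the piRNA genes other than Tdrd9 differed little between the lines. Tdrd1 lay between 6.23 and 6.63, Mov10l1 between 6.85 and 7.19 and Piwil2 between 7.09 and 7.64 over all 27 arrays. In each of the 3 genes every CIR group overlapped the parental group in the same condition, and the largest difference in size was that of Piwil2 in CIR-1 with GFP-PFC, -0.16 ± 0.0859. Tdrd7 was somewhat higher in CIR-1, with 8.83 to 9.08 on 6 arrays against 8.31 to 8.83 on 9 parental arrays, a difference of 0.39 ± 0.107 unstimulated and 0.42 ± 0.107 with GFP-PFC. Its differences in CIR-2 and CIR-3 were 0.23 to 0.27, and those groups overlapped the parental arrays without stimulation but not with GFP-PFC.

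**Figure D2:**
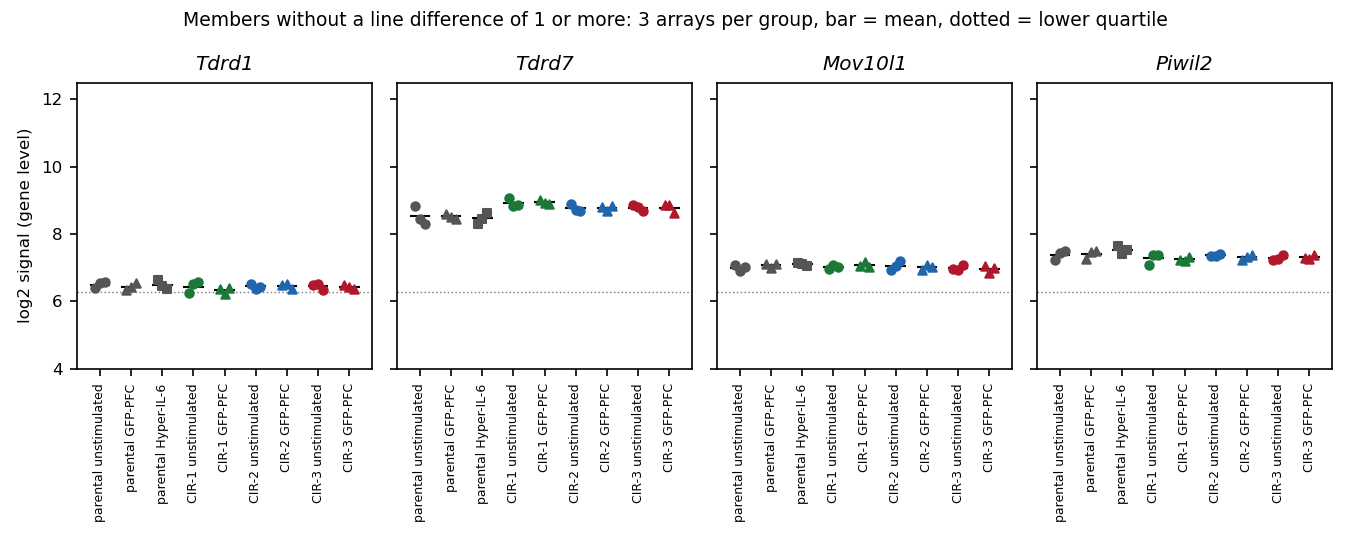
Gene-level log2 signal (y axis, same scale as for the 5 genes above) of Tdrd1, Tdrd7, Mov10l1 and Piwil2 in 9 groups of 3 arrays (x axis), with points, bars and dotted line as before. Tdrd1, Mov10l1 and Piwil2 stay level over the lines, and Tdrd7 in CIR-1 lies 0.39 to 0.42 above parental cells.

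The exon-level values, summarised from probe sets within each gene, showed how far the line differences ran across a gene. These probe sets are parts of the same gene on the same cells and are no replicates. For Tdrd9, 32 of 35 probe sets were higher in unstimulated CIR-3 than in parental cells with no overlap, where 5.04% of all exon-level probe sets were, and all 32 were higher by at least 1. The differences ran from 0.25 to 6.81 with a median of 3.71. Of the 3 Tdrd9 probe sets that overlapped, 2 were already bright in parental cells, at 11.47 and 10.35, and the third stood at 7.02. Over the 35 probe sets the parental level and the difference had a correlation of -0.75, a description in which both quantities share the parental arrays. In CIR-1, 8 of the 35 and in CIR-2, 14 of the 35 were higher without overlap, against 4.39% and 4.55% of all probe sets, and the largest differences, 1.56 and 2.23, were on the probe set that also had the largest one in CIR-3.

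For M1ap, all 11 probe sets were higher without overlap in CIR-3 (0.87 to 4.75) and in CIR-1 (0.53 to 3.35), and 10 of 11 in CIR-2 (0.22 to 2.91). On each of the 11 the order was CIR-3, CIR-1, CIR-2, parental. For Gm773, all 7 were higher without overlap in CIR-3, by 2.00 to 6.56. For Xlr, all 4 were higher without overlap in CIR-2, by 0.45 to 6.87, and 2 of 4 in CIR-3. One Xlr probe set was nearly flat, with group means of 5.16 in CIR-1, 5.45 in parental, 5.63 in CIR-3 and 5.90 in CIR-2 cells. For 3830403N18Rik, all 5 were higher without overlap in CIR-2 (0.40 to 6.44), 3 of 5 in CIR-1 and 3 of 5 in CIR-3. Its CIR-1 differences on those 3 were 3.92, 4.08 and 1.81. The 4 Xlr probe sets in CIR-1 gave -0.29, 0.31, -0.32 and 0.90, and none of the 4 was higher without overlap.

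At exon level, overlap was scored for higher signals only. The lowest differences were -1.56 in CIR-1 and -1.17 in CIR-2 for Piwil2, and -1.18 in CIR-2 and -1.06 in CIR-3 for Mov10l1. The 98 exon-level probe sets of Tdrd1, Tdrd7, Mov10l1 and Piwil2 held 1 that was higher by 1 or more with no overlap. It belonged to Mov10l1, where the signal was 4.06 in parental and 6.10 in CIR-1 cells (2.04 higher), both below the exon-level lower quartiles of 6.65 to 6.74. Tdrd7 in CIR-1 had 3 of 16 probe sets higher without overlap, and the median difference over the 16 was 0.42.

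**Figure D3:**
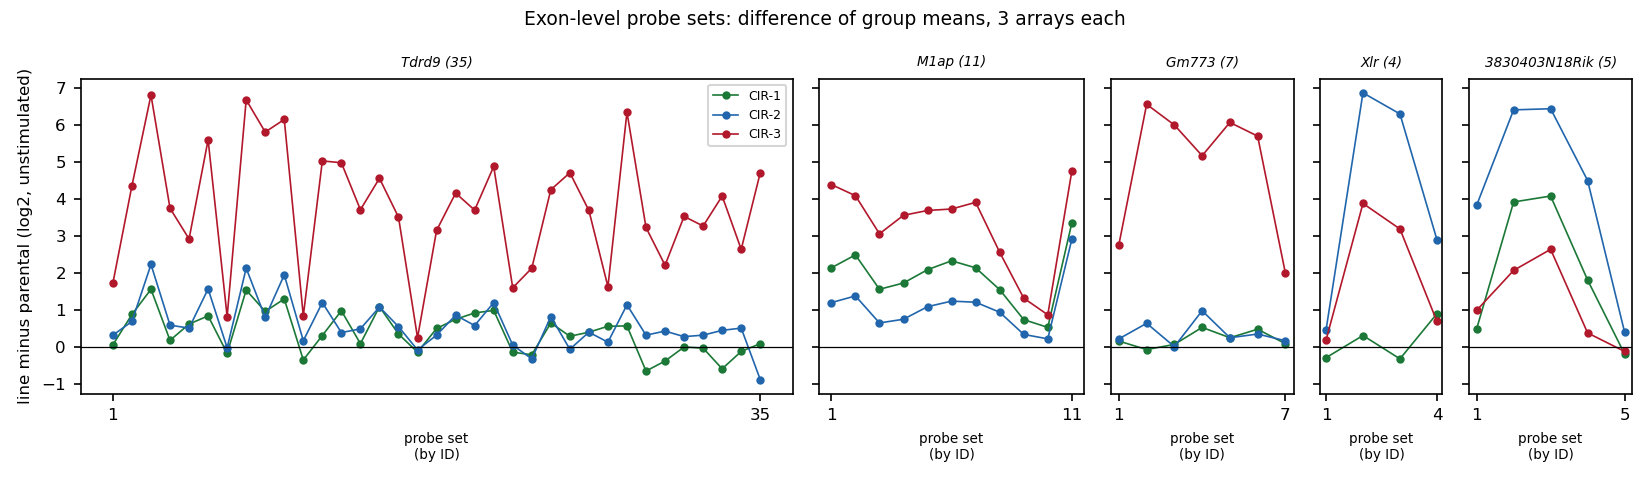
Difference of unstimulated group means, CIR line minus parental (log2, y axis), for each exon-level probe set of 5 genes in order of probe set identifier (x axis; the number in each title is the count of probe sets). Lines join probe sets of 1 CIR line, 3 arrays per group. CIR-3 is highest across Tdrd9, M1ap and Gm773, and CIR-2 across Xlr and 3830403N18Rik, with near 0 differences on single probe sets.

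Stimulation did not detectably change the level of the 9 genes. In limma's test of GFP-PFC against unstimulated cells, averaged over the 4 lines, 0 of 9 genes passed an adjusted p of 0.05, with 0 of 9 under an unadjusted 0.05, where 0.221% of all genes were called. The differences were between -0.06 and 0.04 with SEs of 0.0362 to 0.111, and the lowest adjusted p was 0.986. The CIR-3 response of Gm773 was the largest in any 1 line, -0.30 ± 0.136 with an adjusted p of 1.0 by limma. Its unstimulated values were 10.42, 9.82 and 9.81 against 9.65, 9.82 and 9.69, so the array at 10.42 stood apart from the other 5, and the 2 groups overlapped. The test of whether the GFP-PFC response differed among the 4 lines called 0 of 9 (0 under an unadjusted 0.05), where 0.0% of all genes were called.

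Hyper-IL-6 on parental cells called 0 of 9 genes (1 under an unadjusted 0.05), where 0.773% of all genes were called. That 1 gene was Xlr, with 5.53, 4.94 and 5.05 against 6.03, 5.34 and 5.49 in unstimulated cells, a difference of -0.45 ± 0.18 and an adjusted p of 0.569. The arrays overlapped, and all lay below the lower quartile. 3830403N18Rik gave -0.27 ± 0.188, and the other 7 genes gave between -0.18 and 0.14. With array weights estimated by limma, Xlr (-0.47, adjusted p = 0.0269) and 3830403N18Rik (-0.56, adjusted p = 0.0171) were called.

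**Figure D4:**
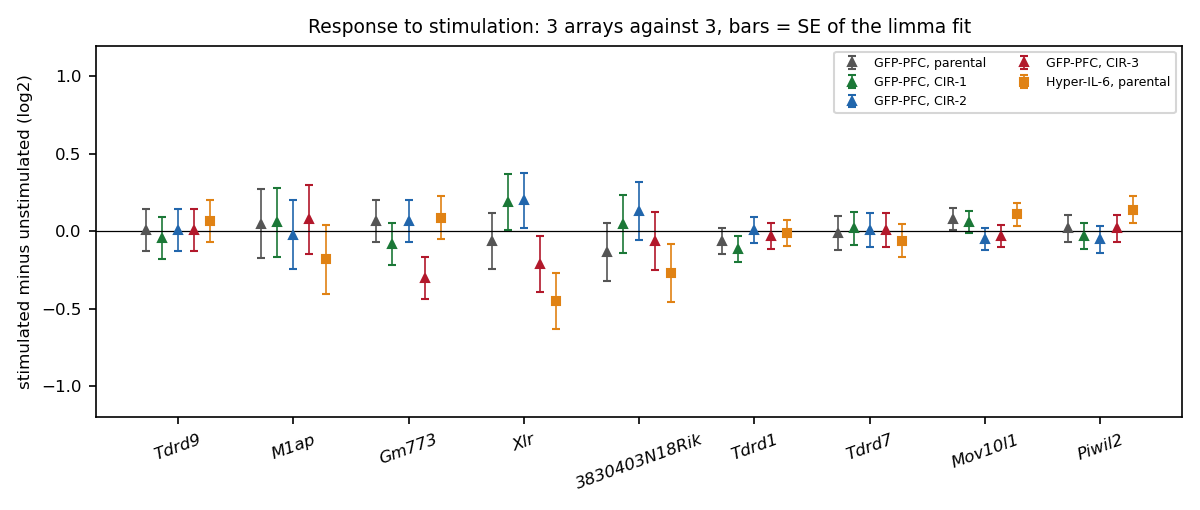
Stimulated minus unstimulated difference (log2, y axis) of the 9 genes (x axis), for GFP-PFC in each of the 4 lines and Hyper-IL-6 in parental cells. Points are differences of 3 arrays against 3 and bars are SEs of the limma fit. Differences lie within 0.30 of 0 for GFP-PFC, and Xlr has the lowest value, -0.45, with Hyper-IL-6.

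Other germline genes were called at shares near those of all genes. Of 69 measured genes of the piRNA pathway, meiosis and germ-cell marker lists other than the 9, limma called 1 higher and 1 lower in CIR-1, 1 higher and 0 lower in CIR-2, and 1 higher and 0 lower in CIR-3 without stimulation, where 1.73%, 1.2% and 1.49% of all genes were called. The median differences of the list were -0.02, -0.02 and -0.08, beside medians over all genes of -0.00239, -0.00973 and -0.0229. With GFP-PFC the calls were 0 higher and 1 lower in CIR-1, 1 and 0 in CIR-2, and 2 and 0 in CIR-3, where 1.64%, 1.17% and 1.24% of all genes were called.

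Gtsf1, a zinc-finger protein needed for piRNA-guided silencing, rose in all 3 lines. It read 10.44, 9.90 and 9.93 in unstimulated parental cells, 10.70, 10.49 and 10.46 in CIR-1, 11.04, 10.90 and 10.85 in CIR-2, and 11.21, 11.04 and 10.94 in CIR-3. All CIR arrays lay above the parental ones, and CIR-2 and CIR-3 overlapped. The differences were 0.98 ± 0.114 in CIR-3 (limma adjusted p = 7.02e-06), 0.84 in CIR-2 (adjusted p = 7.02e-05) and 0.46 in CIR-1 (adjusted p = 0.035). The CIR-1 call was lost with GFP-PFC (0.38, adjusted p = 0.111) and on exon-level values (0.43, adjusted p = 0.146). It was also lost without any 1 of the unstimulated arrays parental 3, parental 5, CIR-1 1, CIR-1 3 or CIR-1 5 (adjusted p 0.0537 to 0.247), which left 1 of 2 CIR-1 calls. Psmc3ip, a cofactor of meiotic recombination also expressed in dividing cells, fell by 0.39 in CIR-1 (adjusted p = 0.0025). That call was lost on exon-level values (-0.30, adjusted p = 0.0667) and when just the arrays of both groups were fitted (adjusted p = 0.404), as were those of Gtsf1 in CIR-1 and CIR-2 (adjusted p = 0.661 and 0.0753) but not in CIR-3.

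Among the other 68 genes, 0 differed by 0.5 or more in any line. The CIR-3 count rested on single arrays in part: it was 7 without parental array 1 (1 higher, 6 lower), 3 without parental array 5, and 2 without CIR-1 array 1 or CIR-3 array 3, and the CIR-2 count was 2 without parental array 5. With consecutive array numbers joined as a replicate block, the count was 4 in CIR-3 and 2 in CIR-2.

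Of the Xlr and Cor1 family, 4 of 16 listed genes had a probe set with 1 symbol, namely Xlr, 3830403N18Rik, Gm773 and Sycp3. Sycp3, the synaptonemal complex protein, differed from parental cells by -0.06 to -0.02 without stimulation and was not called. The other 12 were not analysed here.

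Genes that write, remove or read DNA methylation and repressive chromatin differed modestly. Of 39 measured silencing factors limma called 0 in CIR-1, 1 higher and 1 lower in CIR-2, and 1 higher in CIR-3 without stimulation, beside 1.73%, 1.2% and 1.49% of all genes. Tet1, which oxidises methylcytosine, rose by 0.48 ± 0.0956 in CIR-2 (6.80 to 7.28, adjusted p = 0.00688). Dnmt1, the maintenance methyltransferase, fell by 0.27 in CIR-2 (12.26 to 11.99, adjusted p = 0.0173), and with GFP-PFC the difference was -0.21 (adjusted p = 0.0876). Dnmt3a, a de novo methyltransferase, rose by 0.38 ± 0.0704 in CIR-3 (9.86 to 10.24, adjusted p = 0.00313). The Tet1 call was lost on the exon-level values (0.17, adjusted p = 0.662) and without CIR-2 array 3 (adjusted p = 0.062), and the Dnmt1 call without parental array 5, CIR-2 array 3 or CIR-2 array 5 (adjusted p 0.0612 to 0.124), so the CIR-2 count was 0 or 1 there. When just the arrays of both groups were fitted, all 3 calls were lost (adjusted p 0.214 to 0.386). The CIR-3 count was 3 without parental array 1. With consecutive array numbers joined as a replicate block, the counts were 3 in CIR-1 and 2 in CIR-3.

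Genes beside the 9 in the RefSeq gene order, other than the 9 themselves, were also called at shares near those of all genes. Up to 3 measured protein-coding genes on each side of a gene, with the 9 left out, gave 43 distinct neighbours. Without stimulation limma called 2 of the 129 neighbour differences. These were 1 of 43 in CIR-1, 1 of 43 in CIR-2 and 0 of 43 in CIR-3, beside 1.73%, 1.2% and 1.49% of all genes. Both were of Loxl3, a lysyl oxidase-like gene and the second after M1ap, which rose by 0.57 ± 0.123 in CIR-1 (adjusted p = 0.0119) and 0.50 ± 0.123 in CIR-2 (adjusted p = 0.0425). In CIR-3, the line with the highest M1ap, Loxl3 gave -0.08 ± 0.123. The 6 neighbours of Tdrd9 differed by -0.22 to 0.30 and the 4 around the X-linked genes, counted for each of them, by -0.24 to 0.07. Xlr, 3830403N18Rik and Gm773 stood among each other's nearest measured genes and, with the large differences given above, were left out of these ranges. Nearest here means gene order and not distance. The upstream windows start at chrX:53797707 for Xlr, chrX:56136322 for 3830403N18Rik and chrX:56212882 for Gm773.

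The Loxl3 call in CIR-1 was lost without CIR-1 unstimulated array 3 (adjusted p = 0.0963), and both calls were lost when just the arrays of both groups were fitted (adjusted p = 0.109 and 0.126). In CIR-2 it was lost without any 1 of 12 arrays: unstimulated parental 1, 3 and 5, CIR-2 3 and 5 and CIR-3 3, GFP-PFC parental 4 and CIR-1 4 and 6, and Hyper-IL-6 2, 4 and 6 (adjusted p 0.0514 to 0.247). Without parental unstimulated array 1 there were 8 neighbour calls in all, 2 higher and 6 lower.

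**Figure D5:**
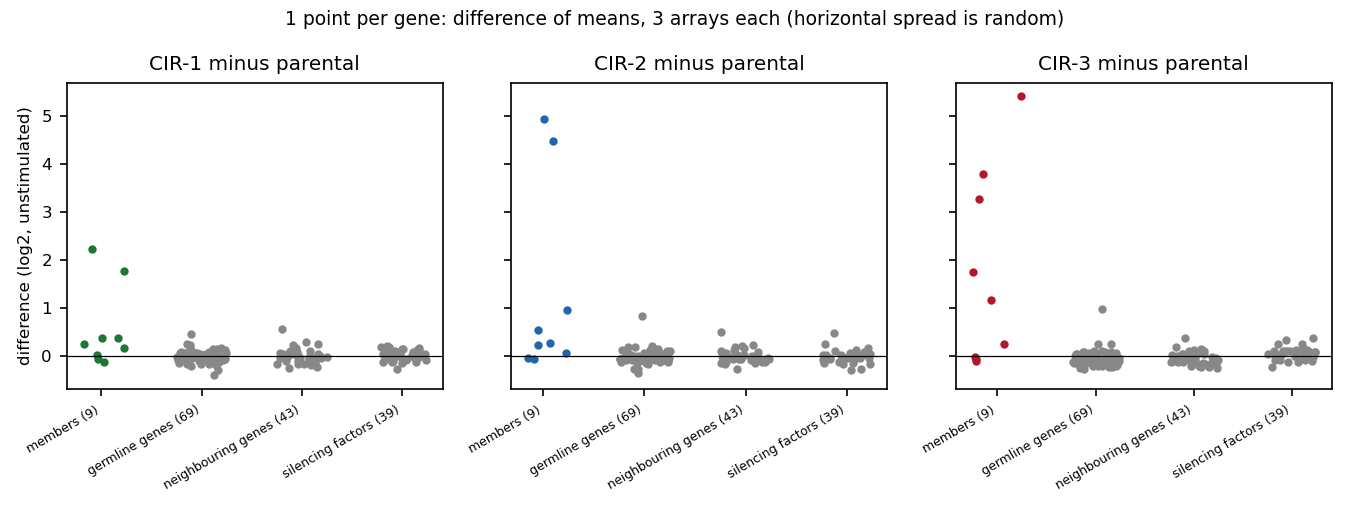
Difference of unstimulated means, CIR line minus parental (log2, y axis), with 1 point per gene for the 9 genes and for 3 sets of other genes (x axis, number of genes in brackets). The 5 genes with large differences stand at 1.18 to 5.41 in CIR-3, while Gtsf1, at 0.98, is the highest of the germline genes.

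Among 205 genes whose group means spanned at least 1, the patterns most like those of Tdrd9, M1ap, Xlr and 3830403N18Rik were found by Pearson correlation over the 9 group means, which come from 4 lines only. For Tdrd9 these were Wfikkn2 (r = 0.994), Fgf15 (0.991) and Wfdc15a (0.99). Unstimulated, Wfikkn2 read 7.12, 7.15, 7.18 and 9.77 in parental, CIR-1, CIR-2 and CIR-3 cells. For M1ap they were Gli2 (0.992), Dnm1 (0.979) and Lgals3 (0.978), the last at 8.38, 10.32, 8.78 and 12.36 in the same order. For Xlr they were Sla (0.976), Mefv (0.97) and Cd84 (0.956), and for 3830403N18Rik they were Hipk2 (0.986), Zfp980 (0.972) and S100a4 (0.967), with Hipk2 at 8.14, 9.61, 10.54 and 8.74. Among the 9 genes, Tdrd9 and Gm773 correlated at 0.995, Xlr and 3830403N18Rik at 0.889, Tdrd9 and M1ap at 0.882, and Gm773 and Xlr at 0.117.

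Some markers of other blood cells differed between the lines as well, and their part in the line differences of the 9 genes was not tested. Of 10 mast cell and basophil markers 1 was lower in each CIR line without stimulation. This was Fcer1a, the IgE receptor chain, lower by 4.10, 4.06 and 4.09 in CIR-1, CIR-2 and CIR-3. The mean over the 10, Fcer1a included, was 7.56 to 7.95 on parental and 7.16 to 7.44 on CIR arrays. The median difference over the 10 was 0.02, -0.22 and -0.24 in the same order, so the lower means rest in part on Fcer1a. Of 6 erythroid and megakaryocyte markers 4 were higher in CIR-1, and 1 each in CIR-2 and CIR-3, with means of 9.07 to 9.14 in CIR-1 and 8.70 to 8.83 in parental cells. Of 7 myeloid markers 1 was lower in CIR-1, 1 lower in CIR-2, and 1 higher and 1 lower in CIR-3. Of 11 pro-B markers and of 5 T-cell markers 0 were called without stimulation. In these comparisons 1.73%, 1.2% and 1.49% of all genes were called in CIR-1, CIR-2 and CIR-3, so counts of 0 in lists this short tell little.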

How the data were processed

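RNA of 27 samples was hybridised to Affymetrix mouse gene arrays. The deposited log2 values were summarised by the authors into gene-level and exon-level signals with Affymetrix Expression Console, restricted to its core probe sets, per the labels. They were read as log2 from their range, 2.97 to 14.86 at gene level, and the summary algorithm, version, normalization and log base are not given in the sources used here. Array number per group (3) limits the precision.

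Probe sets were named through GEO's platform annotation: 21789 of 35556 gene-level probe sets had 1 symbol, 1621 several and 12146 none. Genes with several probe sets (1015) were read on the brightest, and at exon level M1ap was listed under an older symbol that RefSeq pairs with it. The gene lists, the 9 genes and the tests were chosen with earlier results of these data known.

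One limma fit (version 3.58.1 in R 4.3.3) with 1 mean per group over all 27 arrays gave differences, SEs and two-sided p-values, adjusted by Benjamini-Hochberg over 19920 genes, with a threshold of 0.05. It was tested on simulated data. Folds are powers of 2 of the difference. Named genes were the 9 genes, listed genes and neighbours under the threshold (listed genes also without overlap of the 3 arrays), and the 3 genes of most similar pattern.

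Array numbers in the labels (1, 3, 5 unstimulated and 2, 4, 6 stimulated) were checked for pairing by the correlation of deviations from group means. In 12 of 12 consecutive pairs of a line (0.283 to 0.633) and all 36 same-number pairs of unstimulated or GFP-PFC arrays (0.136 to 0.763) it exceeded 0.1, and in 0 of 6 pairs with Hyper-IL-6 arrays. The number was therefore taken as a pairing except for Hyper-IL-6. The main fit had no term for this pairing, so its SEs, p-values and calls leave it out, and a replicate block was fitted as an alternative. That block joined the arrays numbered 1 and 2, 3 and 4, and 5 and 6. It took in the Hyper-IL-6 arrays as well, except where they are said to be left out. Alternatives were this block, only the compared arrays, exon-level values, every probe set, a filter on dim genes, quantile normalization, array weights, leaving out arrays 1 and 2, and leaving out each array.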

Additional observations from a re-analysis of the deposited data

How the results depend on the processing

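Line differences of 1 or more numbered 9 of 27 with all arrays, 10 on exon-level values and 9 to 10 with single arrays left out. The 9 large differences kept their direction in 36 alternatives, for example 3.71 to 3.86 for Tdrd9, 3.09 to 3.43 for M1ap and 4.90 to 5.51 for Gm773 in CIR-3, and 4.13 to 4.83 for Xlr and 4.31 to 5.01 for 3830403N18Rik in CIR-2. The calls of the 9 genes for GFP-PFC and among lines were 0 in all alternatives, and for Hyper-IL-6 0 apart from 2 with array weights. With the replicate block, chosen as a pairing, CIR-2 had 2 and CIR-3 had 4 germline calls, while silencing factors gave 3 calls in CIR-1 and 2 in CIR-3. With the replicate block and without the Hyper-IL-6 arrays, added after seeing the data, germline calls were 4, 2 and 5 and silencing-factor calls 3, 4 and 6 in CIR-1, CIR-2 and CIR-3, and neighbour calls 6. The block changed no other count by over 1.5 times.

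Fitting only the compared arrays, which leaves 4 residual degrees of freedom, gave 0 germline calls in CIR-1 and in CIR-2 but kept Gtsf1 in CIR-3 (adjusted p = 0.0279 by limma), and gave 0 neighbour calls and, for CIR-2 as for CIR-3, 0 silencing-factor calls. Exon-level values gave 1 germline call in CIR-1, a lower one that was neither Gtsf1 nor Psmc3ip, and 1 silencing-factor call in CIR-2. Quantile normalization gave 2 germline calls in CIR-2 and 2 in CIR-3. Array weights gave 3 germline calls in CIR-2, 15 in CIR-3 (2 higher, 13 lower), 2 silencing-factor calls in CIR-1, 4 in CIR-3 and 18 neighbour calls. Without arrays 1 and 2 the counts were 8 for germline genes in CIR-3, 1 and 3 for silencing factors in CIR-1 and CIR-3, and 16 for neighbours. The cause of these shifts was not tested.

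With single arrays left out, germline calls ranged from 1 to 2 in CIR-1, 1 to 2 in CIR-2 and 1 to 7 in CIR-3, silencing-factor calls from 0 to 2 in CIR-2 and 1 to 3 in CIR-3, and neighbour calls from 1 to 8. Signals below the lower quartile limit what can be said of Gm773, Xlr and 3830403N18Rik in parental cells.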
